A study of Mus musculus with 12 samples.

Results

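The regions described here are 789 large H3K27ac domains of mouse melanoma cells in which H3K4me1 peaks were listed both with KMT2D intact and with KMT2D mutant. They were chosen by joining autosomal WT H3K27ac peaks across gaps of at most 12500 bp, keeping joined domains that spanned at least 20 kb, and taking those that overlapped at least 1 WT and at least 1 mutant H3K4me1 peak by 1 bp or more. Of 12298 joined domains of any span, 1313 were large, and 789 of these (60.1%) met the rule. A further 355 had WT H3K4me1 but no mutant H3K4me1 peak, 33 had mutant H3K4me1 alone, and 136 had neither. The presence of H3K4me1 in both genotypes and the WT H3K27ac peaks are therefore what selected these domains, and are given below as a description only.

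The measurements are ChIP-seq peak lists of histone marks. In this assay chromatin fragments carrying a mark are pulled down with an antibody and sequenced, and each of the 12 samples is 1 library, of 1 of 5 marks or an input in 1 of 2 genotypes. Both genotypes were tumour cells of the iBIP melanoma model, whose engineered alleles include Tyr-CreERT2, Rosa26-rtta, TetO-BRAFV600E and INK/ARF L/L, on a mixed FVB and B6 background. Doxycycline was given and 4-OHT was put on the ears, where the tumours grew. The WT cells were iBIP;KMT2D+/+ and the mutant cells iBIP;KMT2DL/L, so the other engineered alleles of the model were shared by both. Tyr-CreERT2 is a tamoxifen-activated Cre under a melanocyte promoter. The labels do not say how many animals or cultures gave the cells. With no replicates, no test between genotypes could be made, and every difference below compares single libraries.

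H3K4me1 is the methyl mark typical of enhancers, and KMT2D is one of the enzymes that place it there. H3K27ac marks enhancers and promoters in use, and long runs of closely spaced H3K27ac peaks are often studied as super-enhancers or as broad active domains around highly transcribed genes. H3K4me3 lies at promoters, H3K79me2 is laid down by DOT1L over transcribed gene bodies, and H3K27me3 is the mark of Polycomb silencing.

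A domain is made of constituents, the single WT H3K27ac peaks that were joined. A constituent was called marked when it overlapped a WT H3K4me1 peak, kept when it also overlapped a mutant H3K4me1 peak, and lost when it did not. Absence from a list shows only that the authors' threshold was not reached there, not that the mark was absent, and read depth is unknown. The WT list held 15974 autosomal H3K4me1 peaks and the mutant list 5358, while H3K27ac had 24759 and 22083. Intervals in parentheses are exact (Clopper-Pearson) 95% binomial intervals for shares and Newcombe intervals for differences. They cover counting error only, and neighbouring peaks of a domain are not independent.

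The domains spanned 20025 to 276094 bp, with a median of 35730 bp, and together covered 34.0 Mb. They had 2 to 43 constituents each, with a median of 6 and a total of 5893. They held 33.4% of the autosomal length under WT H3K4me1 and 45.3% of that under mutant H3K4me1. Mutant H3K4me1 was thus more concentrated in these domains than WT H3K4me1, as the rule, which requires a mutant peak, favours.

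Although each of these domains had mutant H3K4me1, most had much less of it than in WT cells. H3K4me1 peaks covered 8.18 Mb of the domains in WT and 3.32 Mb in the mutant, a mutant over WT ratio of 0.406. Over all autosomes the ratio was 0.300 (24.5 and 7.34 Mb) and outside these domains 0.246, so the H3K4me1 length was lower by less inside them, a comparison that the rule favours. H3K27ac covered 16.9 Mb in each genotype, a ratio of 1.00. The H3K27ac ratio refers to domains drawn on WT peaks, a choice that favours WT.

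The same contrast was seen domain by domain. The median length under H3K4me1 was 7688 bp per domain in WT (quartiles 4001 and 13211) and 2599 bp in the mutant (1425 and 5223). The mutant had fewer H3K4me1 base pairs in 738 of 789 domains, under 50% of the WT length in 522 and under 10% in 19, while 51 domains had as many or more. The median mutant over WT ratio of H3K4me1 length was 0.415 (quartiles 0.271 and 0.570). For H3K27ac it was 0.986 (0.854 and 1.12), and 520 domains had a mutant H3K27ac length within 20% of WT. Of those 520, 345 had under 50% of their WT H3K4me1 length, a share close to that over all 789 domains (66.2%).

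**Figure D1:**
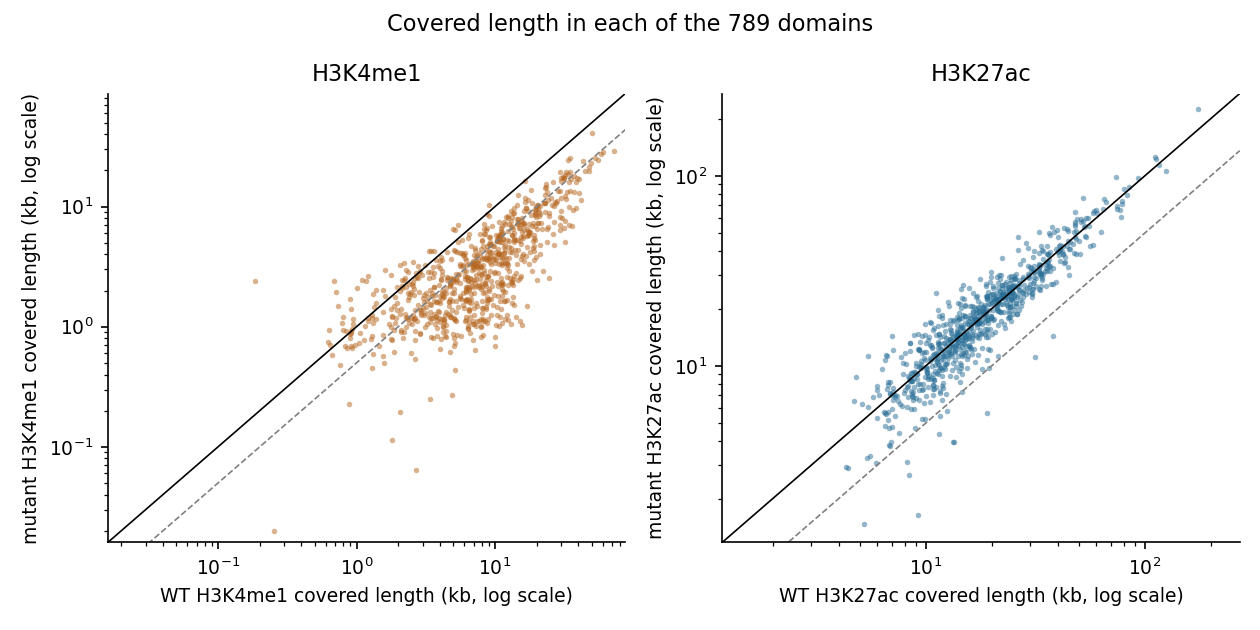
Length under H3K4me1 peaks (left) and H3K27ac peaks (right) in each of the 789 domains, WT on the x axis and mutant on the y axis, in kb on log scales; each point is a domain, the solid line marks equal length and the dashed line 50% of WT. For H3K4me1, 738 points lie below the solid line and 522 below the dashed one, while the H3K27ac points lie around the solid line with a median ratio of 0.986.

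Chromosomes showed little spread around these values. The H3K4me1 ratio ran from 0.355 on chromosome 7 to 0.473 on chromosome 18, and the H3K27ac ratio from 0.939 on chromosome 16 to 1.06 on chromosome 12. On each of the 19 autosomes the H3K4me1 ratio was the lower of the 2. The share of large domains that met the rule varied more, from 44.0% on chromosome 17 to 71.7% on chromosome 7.

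Of the marks the rule did not use, H3K4me3 and H3K79me2 had mutant lengths within 10% of WT, and H3K27me3 covered more in the mutant. H3K4me3 covered 4.49 Mb of the domains in WT and 4.72 Mb in the mutant (ratio 1.05), and 688 and 694 domains had at least 1 H3K4me3 peak. H3K79me2 covered 11.7 and 10.8 Mb (ratio 0.924), in 683 and 663 domains. H3K27me3, the silencing mark, was scarce in both genotypes, at 0.117 Mb in 70 domains of WT cells and 0.225 Mb in 85 domains of mutant cells (ratio 1.92). Over all 1313 large domains the 3 ratios were 1.05, 0.901 and 1.64. WT peaks of the 3 marks were in 84.4%, 81.2% and 10.8% of those, against 87.2%, 86.6% and 8.87% of the 789. Over all autosomes H3K4me3 went from 30.1 to 31.8 Mb, H3K79me2 from 90.3 to 74.5 Mb and H3K27me3 from 27.6 to 37.6 Mb.

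Within the domains H3K4me1 was kept at some constituents and lost at others. Of the 5893 constituents, 1491 (25.3%) had kept H3K4me1, 1701 (28.9%) had lost it, 214 (3.63%) had it in the mutant alone, and 2487 (42.2%) had it in neither genotype. Of the 3192 marked constituents, 46.7% (44.97 to 48.5) had kept the mark. Over all autosomal WT H3K27ac peaks with WT H3K4me1 the share was 33.5% (2706 of 8073), and outside large domains 29.0%. Nothing can be read from the higher share in the domains, since a domain without mutant H3K4me1 could not be a member.

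Most domains held a mixture. At least 1 constituent had kept H3K4me1 in 697 domains, of which 338 had 1 and 359 had 2 or more, 65 of them 5 or more. In the other 92 domains no marked constituent had kept it: mutant H3K4me1 lay on a constituent without WT H3K4me1 in 68 of them, and only between constituents in 24. Among the 532 domains with 3 or more marked constituents, all were kept in 26, none in 25, and some but not all in 481. The rule favours a low number with none kept, since a domain without mutant H3K4me1 could not be a member. Whether mixtures were more common than independent keeping of constituents would give was not tested. The median share kept in these 532 domains was 40.0% (quartiles 28.6 and 63.5).

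**Figure D2:**
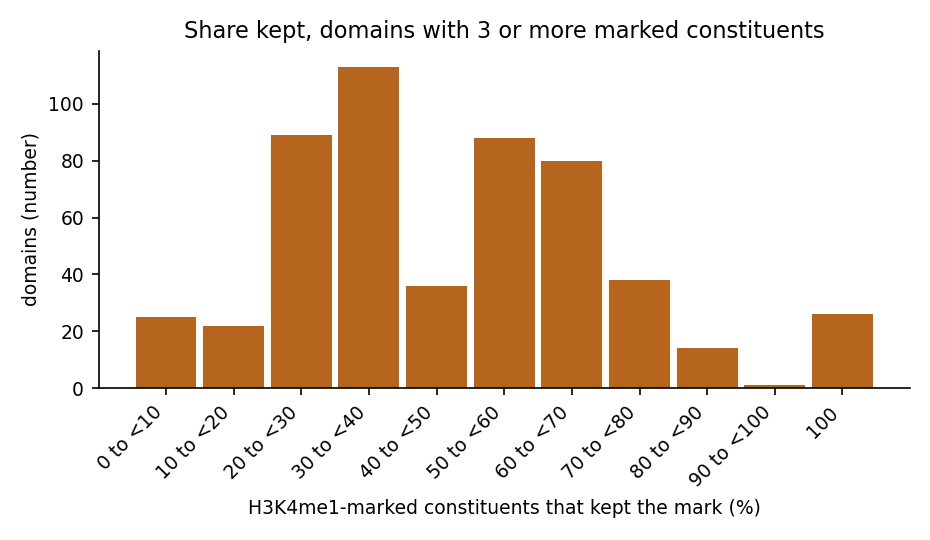
Number of domains (y axis) by the share of their H3K4me1-marked constituents that kept the mark (x axis, in steps of 10 percentage points), for the 532 domains with 3 or more marked constituents. Domains with none kept number 25 and those with all kept 26, and 481 lie between. The rule favours a low number with none kept, since each domain had to have a mutant H3K4me1 peak.

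Kept and lost constituents could be neighbours. Of 1771 pairs of marked constituents next to each other in a domain, 433 were both kept, 514 both lost and 824 (46.5%) were 1 of each. Whether neighbours were alike more or less often than independent keeping would give was not tested. By place in the domain the shares did not differ beyond counting error: the first and last constituents had kept H3K4me1 in 47.0% of cases and the inner ones in 46.6% (difference 0.448 percentage points, −3.51 to 4.42).

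The longest domain shows the mixture on a single stretch of chromatin. It lies at chr2:167510470-167786563 (mm9, as all positions here) and spans 276094 bp with 41 constituents. H3K27ac covered more of it in the mutant (WT 174231 bp, mutant 225821 bp) and H3K4me1 less (WT 72848 bp, mutant 29023 bp). Of 17 marked constituents 9 had kept H3K4me1. At the far end, where H3K79me2 lay in both genotypes, a constituent of 4966 bp was under H3K4me1 over its full length in WT and over 4954 bp in the mutant, and its neighbour of 4300 bp over its full length in both. The first constituent, 9773 bp wide and the domain's second by score, had WT H3K4me1 over 3671 bp and no mutant H3K4me1. H3K4me3 (6433 and 7159 bp), H3K79me2 (4801 and 3059 bp) and H3K27ac (9773 bp) were present on it in both genotypes.

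The domain with the most mutant H3K4me1 lies at chr15:77626204-77765023. H3K4me1 went from 50498 bp in WT to 40850 bp in the mutant there, and H3K27ac from 80239 to 84840 bp. In its first part were 3 constituents with H3K4me1 in the mutant alone and H3K4me3 in WT alone. Constituents of 2588, 4106 and 5311 bp had no WT H3K4me1 but 2569, 3731 and 5233 bp of mutant H3K4me1. On the same constituents WT H3K4me3 covered 916, 3799 and 1140 bp, and no mutant H3K4me3 peak was listed. Of the 11533 bp of mutant H3K4me1 on them, 5728 bp (49.7%) lay under WT H3K4me3, from 21.8% to 98.4% by constituent. Over the whole domain H3K4me3 went from 30269 to 14294 bp. Of the domain's 15 marked constituents, 8 had lost H3K4me1, among them one of 4241 bp with 3013 bp of it in WT that still had 4205 bp of mutant H3K27ac.

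The lowest mutant over WT ratio of H3K4me1 length among the 532 domains with at least 5000 bp of WT H3K4me1 was 0.0658, in a domain at chr17:73265858-73316229. H3K4me1 went from 15590 to 1026 bp there. The 1026 bp lay on 1 constituent, which also had H3K4me3 in both genotypes. Adjacent constituents of 3974 and 3845 bp lost 3235 and 3737 bp of H3K4me1, while 3150 and 3709 bp of them stayed under mutant H3K27ac and H3K79me2 remained over 3974 and 2464 bp. The strongest constituent had H3K4me3 and no H3K4me1 in either genotype.

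**Figure D3:**
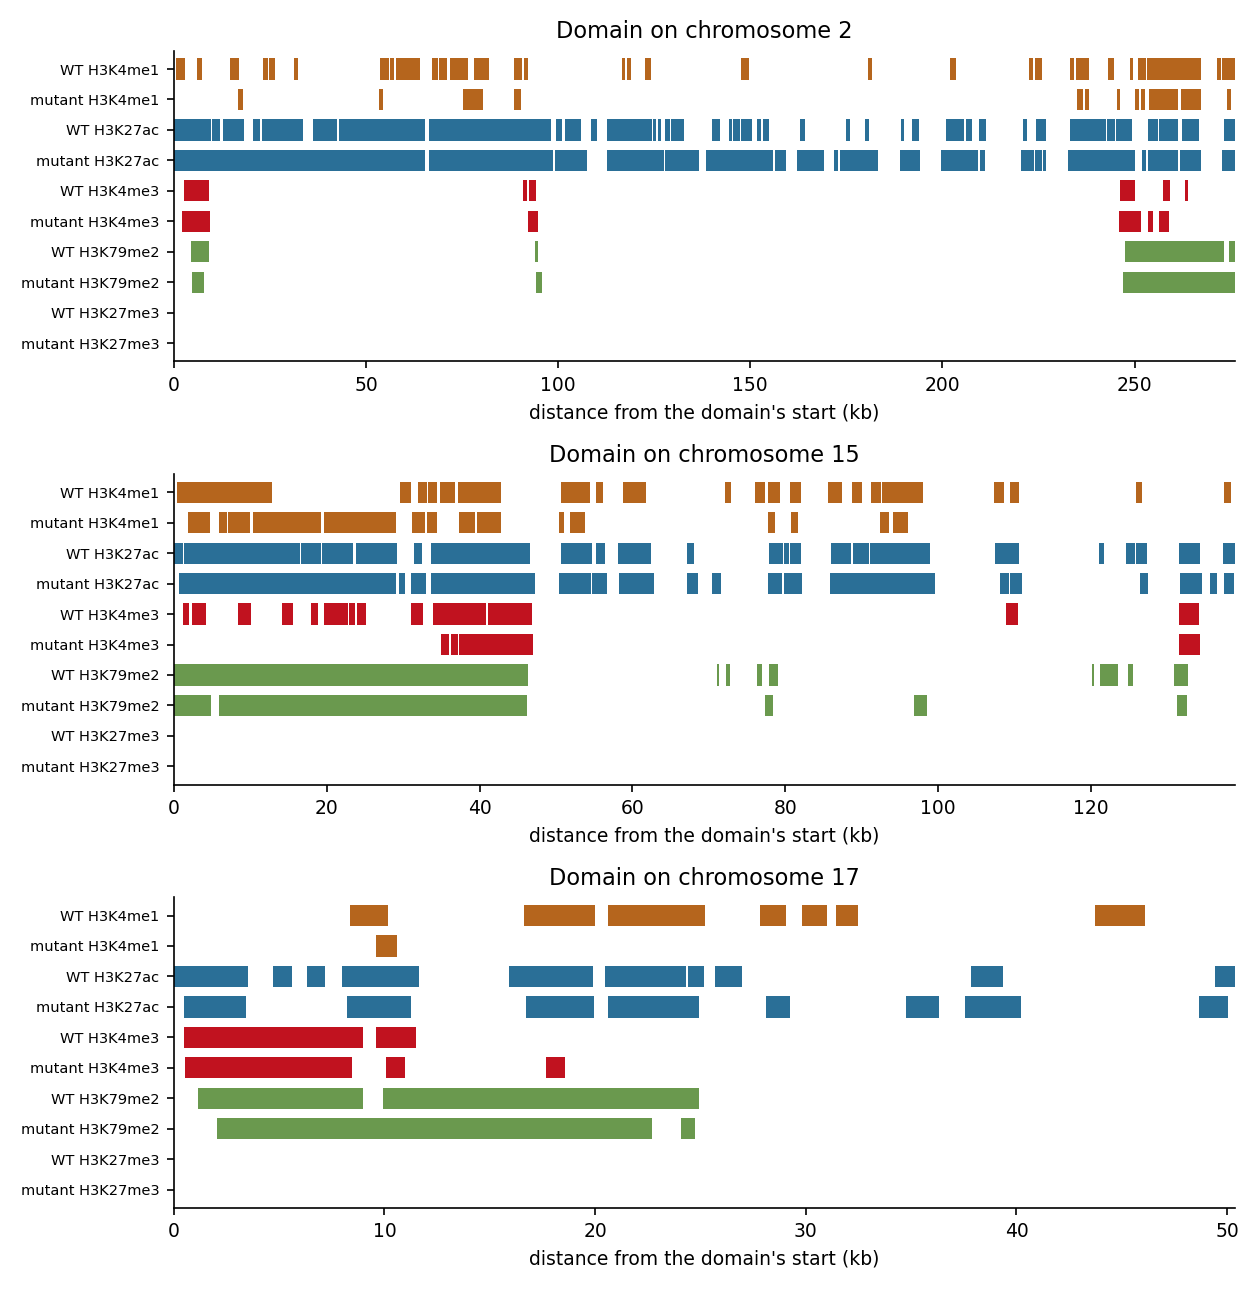
Peaks of each mark and genotype along 3 domains, the longest (chromosome 2), that with the most mutant H3K4me1 (chromosome 15) and that with the lowest H3K4me1 ratio (chromosome 17); the x axis is the distance from the domain's start in kb and each bar is a peak. H3K27ac bars largely coincide between the genotypes, and mutant H3K4me1 bars fill fewer places than WT ones, except in the first part of the chromosome 15 domain, where they also fill places without WT H3K4me1, part of which lie under WT H3K4me3.

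Other domains with a low ratio lay with and without transcription-linked marks. A domain at chr9:116233072-116294302 had neither H3K79me2 nor H3K4me3 in any library. It lost H3K4me1 from each of its 5 marked constituents (10063 to 696 bp over the whole domain) while H3K27ac went from 19243 to 24394 bp. A domain at chr9:121257070-121281815 lost it from all 4 of its constituents (13062 to 1045 bp), and lay partly under H3K79me2 (15930 bp in WT, 9425 bp in the mutant).

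At the other end, some domains had as much H3K4me1 as in WT. Over all 789 domains the ratio reached 12.9. Among the 532 domains with at least 5000 bp of WT H3K4me1 it was highest, at 1.28, at chr9:32305825-32350992 (5450 bp in WT, 6995 bp in the mutant). It was 1.23 at chr19:46672124-46696828 (5143 and 6334 bp) and 1.14 at chr10:22002097-22029358 (9082 and 10337 bp). In the domain on chromosome 10 each of the 3 constituents had kept H3K4me1. On the strongest of them, 9144 bp wide, H3K4me1 went from 3571 to 6198 bp, beside H3K4me3 in both genotypes (6009 and 5449 bp). A domain at chr1:132968703-133008332 had nearly equal H3K4me1 (16525 and 16307 bp), with less H3K4me3 (12278 bp in WT, 4160 bp in the mutant).

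Of the 5 domains with the most kept constituents, 4 lay mostly under H3K79me2, the longest domain being the other. Over all 789 domains WT H3K79me2 covered 34.3% of the summed span. A ranking by number kept favours domains with many marked constituents, so these are given as examples only. At chr14:26276285-26351028, 11 of 14 marked constituents had kept H3K4me1, and H3K79me2 covered 70525 of the 74744 bp in WT, with 68248 bp left in the mutant. The length under H3K4me1 still went from 58589 to 27451 bp there. At chr6:133983806-134172898, 11 of 23 were kept, at chr15:83238011-83305931, 10 of 13, and at chr2:90314845-90422426, 10 of 16. Of the 5 longest domains 2, at chr8:129278224-129454432 and at chr15:59510270-59677688, had 0 and 229 bp of WT H3K79me2, and kept H3K4me1 at 3 of 15 and 8 of 18 marked constituents.

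Over all domains the constituents that kept H3K4me1 tended to be wider peaks with higher WT scores. Their median width was 3537 bp, against 2049 bp for those that lost it, and their median WT H3K27ac score, which reads as the peak caller's −log10 p multiplied by 10, was 888 against 382. The best WT H3K4me1 score on a constituent had a median of 388 where it was kept and 197 where it was lost. In 5 equal groups of marked constituents by H3K27ac width, the share kept was higher in each step, from 26.3% (22.9 to 29.9) through 35.1%, 45.3% and 54.9% to 72.1% (68.4 to 75.5). By WT H3K4me1 score it went from 21.6% (18.5 to 24.99) through 33.0%, 41.5% and 58.8% to 78.7% (75.3 to 81.8). A wide peak is more easily touched by 1 bp, and its part in these gradients was not tested.

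The strongest constituent of a domain by H3K27ac score was kept more often than the rest. Where it was marked (598 domains), it had kept H3K4me1 in 67.1% of cases, against 42.0% of the other constituents, a difference of 25.04 percentage points (20.7 to 29.1). The share was lower with each rank, at 57.9% for the second, 48.2% for the third, 40.0% for the fourth and 33.1% for the rest. Scores of 3100 or above, which reach 3233, do not rank peaks well, and 175 of 789 domains had such a constituent. Where constituents of a domain shared the top score, as in 32 of 789 domains, the widest was taken as strongest. Without those 32 the difference was 24.7 points (20.3 to 28.9), with the other domains with such scores left in. Strongest constituents were also wider, with a median of 5902.5 bp against 2171.5 bp. At like width the difference was 11.7 points as a mean over 4 groups, the narrowest holding no strongest constituent. Without the group with 16 of them, where it was 28.2 points, the mean was 6.27 points, and in the widest group the difference was 1.68 points. With at least 50% of a constituent required under H3K4me1 it was 0.812 points (−4.48 to 6.62).

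Promoter-marked constituents gave a similar picture. Of marked constituents with WT H3K4me3, 57.0% had kept H3K4me1, against 42.0% of those without, a difference of 15.0 points (11.2 to 18.6). Their median widths were 4164 and 2095.5 bp. At like width the difference was 4.07 points and ran from −2.54 to 14.5 across the 5 groups, and it was 0.865 points (−4.78 to 7.13) with an overlap of at least 50%. That setting asked for 50% of a constituent under each mark, H3K4me3 included, which a wide constituent meets less easily. The groups with and without H3K4me3 thus changed too, and the setting does not test H3K4me1 on the same groups. At like WT H3K4me1 score the difference was 12.9 points.

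The difference by H3K79me2, the mark of transcribed gene bodies, was similar across widths. Of marked constituents that overlapped WT H3K79me2, 53.6% (51.4 to 55.9) had kept H3K4me1, against 36.1% (33.4 to 38.8) of those that did not, a difference of 17.5 points (14.1 to 21.0). It was 14.8 points at like width, between 13.0 and 15.98 in each of the 5 groups. With an overlap of at least 50%, asked of H3K79me2 as well, it was 15.8 points (12.1 to 19.5). It had the same direction on 18 of 19 autosomes. In the 341 domains with marked constituents of both kinds, the share kept was higher at those with H3K79me2 in 203, lower in 81 and equal in 57. WT H3K4me1 scores were higher with H3K79me2 too, with medians of 306 and 210, and at like H3K4me1 score the difference was 8.59 points, from 6.10 to 12.3 across the groups. Such consistency was not particular to H3K79me2. The H3K4me3 difference had the same direction on 18 of 19 autosomes, and that for the strongest constituent on 19 of 19. Within domains the share was higher with H3K4me3 in 240 of 444, lower in 141 and equal in 63. For the strongest constituent it was higher in 324 of 551 domains, lower in 159 and equal in 68.

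The 2 marks combined gave shares in the same order. Constituents with both H3K4me3 and H3K79me2 had kept H3K4me1 in 60.5% of cases (57.0 to 63.8), those with H3K79me2 alone in 48.4% (45.4 to 51.4), those with H3K4me3 alone in 39.6% (32.2 to 47.4) and those with neither in 35.5% (32.7 to 38.4). The intervals of the last 2 overlap. Median widths were 4274, 1962, 3697 and 2236 bp in that order, and these 4 shares were not compared at like width. Constituents with H3K27me3 were too few to compare, with 3 of 20 kept (3.21 to 37.9%).

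**Figure D4:**
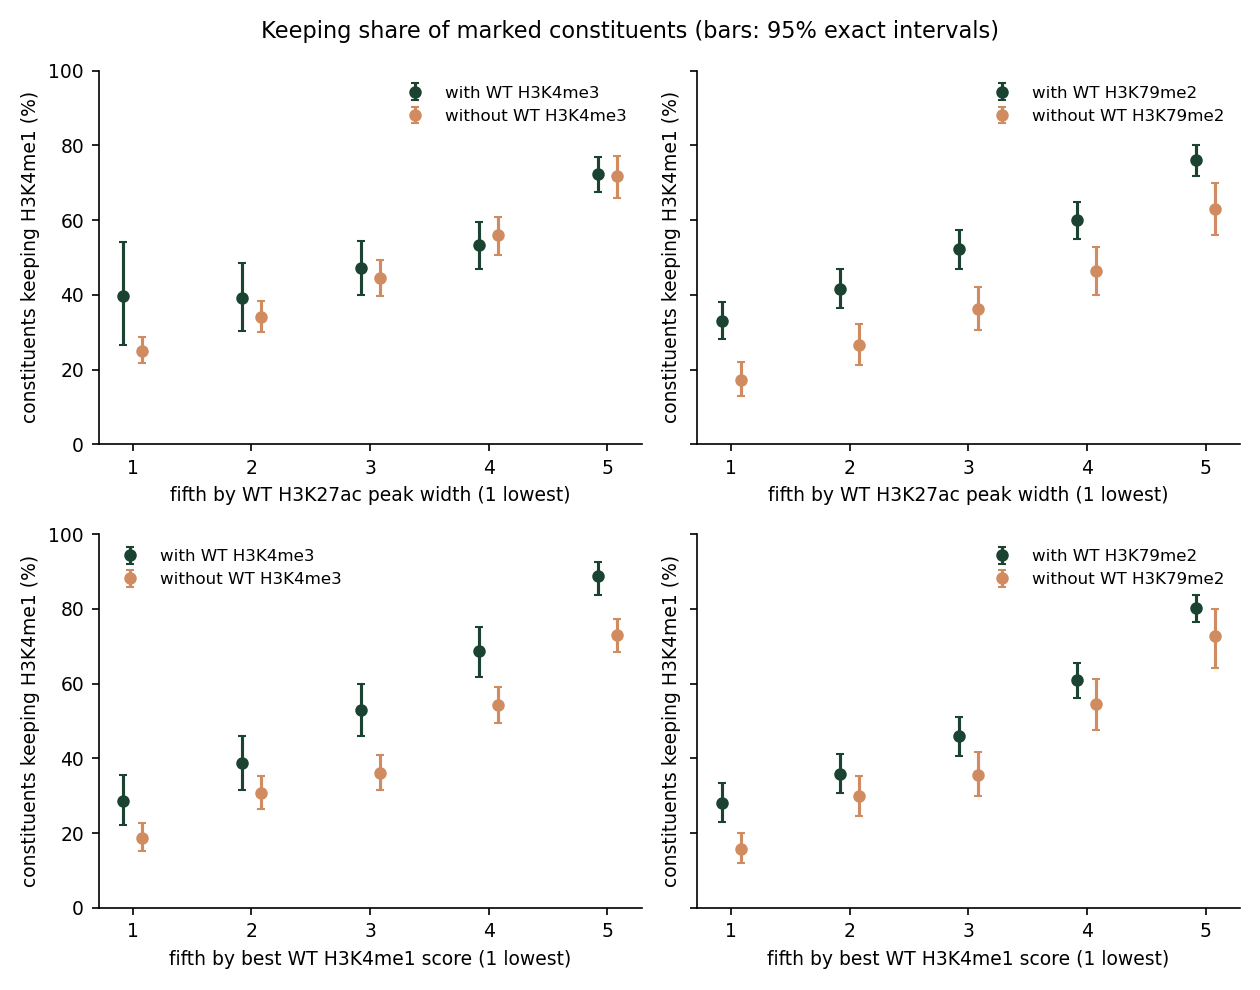
Share of marked constituents that kept H3K4me1 (y axis, percent, with exact 95% intervals as bars) in 5 equal groups by WT H3K27ac peak width (top) and by best WT H3K4me1 score (bottom), split by WT H3K4me3 (left) and WT H3K79me2 (right). The points lie higher from left to right, except those with H3K4me3 in the 2 narrowest groups, which are level; at like width the H3K79me2 points stay 13.0 to 15.98 points apart, while the H3K4me3 points lie together in the 2 widest groups.

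Kept H3K4me1 was shorter H3K4me1. The 1491 kept constituents had a median of 2077 bp under WT and 1317 bp under mutant H3K4me1, with a median ratio of 0.696 (quartiles 0.466 and 0.948), and 1195 of them (80.1%, 78.0 to 82.1) had less in the mutant. H3K4me1 covered a median of 70.4% of their width in WT and 41.6% in the mutant. In 1419 of them a WT H3K4me1 peak on the constituent itself overlapped a mutant one, so that the mark was kept at the same place. Over the kept constituents H3K4me1 went from 4.17 to 2.64 Mb (ratio 0.632), and the lost ones had held 2.35 Mb in WT. The smaller H3K4me1 length of the mutant thus lay both at lost constituents and at constituents that count as kept.

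H3K4me1 between constituents was kept less often than H3K4me1 on them. The domains held 4402 WT H3K4me1 peaks, of which 1686 (38.3%) overlapped a mutant H3K4me1 peak, against 23.0% of all autosomal WT H3K4me1 peaks, a comparison the rule again favours. On constituents the share was 41.0% (39.5 to 42.6) and between them 17.1% (13.9 to 20.7). Peaks between constituents had lower scores (median 139 against 211), and the share was lower between constituents in each of 5 groups of like score, for example 10.2% (5.70 to 16.6) against 23.0% (20.01 to 26.2) in the second-lowest and 62.5% (35.4 to 84.8) against 75.8% (72.8 to 78.6) in the highest. In covered length, H3K4me1 on constituents went from 6.52 to 2.84 Mb (ratio 0.435) and between them from 1.66 to 0.487 Mb (0.293).

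Mutant H3K4me1 away from WT H3K4me1 peaks made up the smaller part. Of 2200 mutant H3K4me1 peaks in the domains, 1826 (83.0%) overlapped a WT H3K4me1 peak and 374 (17.0%, 15.5 to 18.6) did not. The rule favours such overlap, since it asks for a WT peak and leaves out the 33 large domains with mutant H3K4me1 alone. The share over all autosomal mutant H3K4me1 peaks was not computed. Of the 2200 mutant peaks, 2027 lay on constituents. The 214 constituents with H3K4me1 in the mutant alone were spread over 189 domains and held 0.199 Mb of it. Loss of H3K4me3, as seen in the chromosome 15 domain, was found at few such constituents: of 66 with WT H3K4me3, 5 had no mutant H3K4me3 (7.58%, 2.51 to 16.8), and 3 of these are the ones of that domain. Among kept constituents with WT H3K4me3, 88 of 573 had no mutant H3K4me3 (15.4%, 12.5 to 18.6), and among lost ones 46 of 433 (10.6%, 7.88 to 13.9).

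Mutant H3K27ac was not used to choose the domains, and remained at most constituents whether or not they had kept H3K4me1. It was listed at 82.9% (81.9 to 83.8) of the 5893 constituents, against 76.0% of all autosomal WT H3K27ac peaks. By class it was at 95.7% (94.6 to 96.7) of kept, 87.2% (85.5 to 88.7) of lost, 84.6% (79.03 to 89.1) of mutant-only and 72.1% (70.3 to 73.9) of never marked constituents. Thus 1483 of the 1701 constituents that lost H3K4me1 still had an H3K27ac peak. Kept and lost constituents are all H3K4me1-marked, and together 91.2% of them had mutant H3K27ac. Among marked WT H3K27ac peaks elsewhere the share was 85.0% (82.1 to 87.6) in domains that lost all H3K4me1. Outside large domains it was 83.0% (81.8 to 84.1).

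The difference between kept and lost constituents in mutant H3K27ac was 8.52 points (6.63 to 10.4) and shrank to 3.45 points at like WT H3K27ac score. It lay mainly at the weaker constituents. In 5 groups of marked constituents by score it was 8.92 and 6.996 points in the 2 weakest, 1.44 in the middle one, and 0.107 and −0.224 in the 2 strongest, where at least 99.3% of both classes had mutant H3K27ac. The never marked constituents of low score had mutant H3K27ac least often, with 45.6% (41.9 to 49.2) in the weakest of 5 groups of all constituents, against 61.2% (55.4 to 66.8) of lost and 74.0% (64.5 to 82.1) of kept ones.

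**Figure D5:**
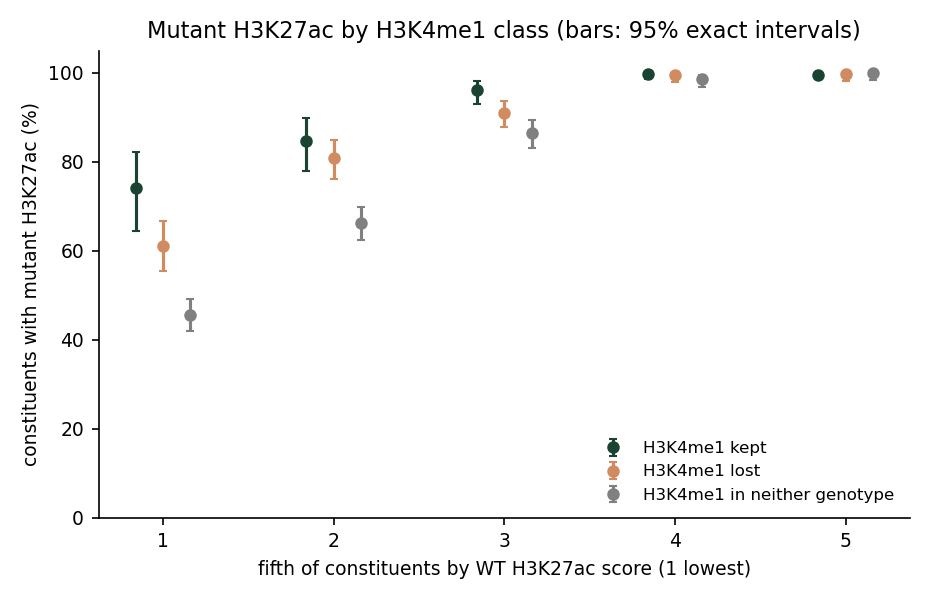
Share of constituents with a mutant H3K27ac peak (y axis, percent, with exact 95% intervals as bars) in 5 equal groups of all 5893 constituents by WT H3K27ac score (x axis), for constituents that kept H3K4me1, lost it or had it in neither genotype. The classes stand apart in the weakest group, at 74.0%, 61.2% and 45.6%, and come together in the 2 strongest.

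H3K79me2 was also still listed at most constituents that had it in WT, whether or not they had kept H3K4me1. Of the 1038 kept constituents with WT H3K79me2, 95.8% (94.4 to 96.9) had mutant H3K79me2, and of the 898 lost ones 88.9% (86.6 to 90.8). Constituents without WT H3K79me2 seldom had it in the mutant, at 4.86% of kept and 3.49% of lost ones. Kept constituents as a whole were wider, with medians of 3537 and 2049 bp. These shares were not compared at like width or score, nor with the share over all autosomal WT H3K27ac peaks.

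A small number of domains had little H3K27ac left in the mutant and still met the rule. The least of the WT H3K27ac length under mutant H3K27ac was 14.3%, at chr14:122427643-122467267 (9166 bp in WT, 1640 bp in the mutant). It was 27.6% at chr4:41292992-41317123, 28.2% at chr6:34425132-34449410, 29.2% at chr2:127123396-127164395 and 29.8% at chr10:13014976-13044611. In the domain on chromosome 2 the strongest constituent, 6958 bp wide, had no mutant H3K27ac and no mutant H3K4me1, while its H3K4me3 stayed (2799 bp in WT, 2676 bp in the mutant). Its neighbour of 3341 bp had no mutant H3K27ac either, yet had 1671 bp of H3K4me1 in the mutant alone.

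Set against the 355 large domains that had lost all H3K4me1 peaks, the 789 domains were longer and richer in H3K4me1 to begin with. Their median span was 35730 bp against 27402 bp, and their median WT H3K4me1 length 7688 bp against 2541 bp. The share of large domains that still had mutant H3K4me1 was higher the more WT H3K4me1 peaks they held, from 37.4% (30.5 to 44.7) with 1 peak through 48.7% with 2, 59.3% with 3, 84.3% with 4 or 5 and 91.0% with 6 to 9 to 97.8% (92.3 to 99.7) with 10 or more. The rule asks for 1 mutant peak, which a domain with more peaks meets more easily.

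Compared with the domains that had lost all H3K4me1, the 789 domains also retained more of their H3K27ac. A mean of 83.3% of their WT H3K27ac length lay under mutant H3K27ac (SD 13.4 over 789 domains), against 76.3% (SD 17.9 over 355 domains), a difference of 7.01 points between the means. At like WT H3K27ac length it was 5.07 points and had the same sign in each of 5 groups (2.98 to 8.29). A large mutant H3K27ac domain overlapped 82.9% (80.1 to 85.5) of them, against 69.3% (64.2 to 74.1), but this difference came to 3.40 points at like H3K27ac length (1.54 to 6.47). In the other large domains the mean under mutant H3K27ac was 74.8% (33 with mutant H3K4me1 alone) and 68.4% (136 with neither). At like H3K27ac length the 789 domains still had more WT H3K4me1 in each of 5 groups. The means were 4616 and 2452 bp in the lowest group and 19089 and 5762 bp in the highest. The median H3K27ac score of a domain's constituents was also higher, at a median of 395 against 301. Neither of these was matched.

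H3K79me2, a mark outside the rule, covered more of these domains. It covered 34.3% of the summed span of the 789 domains in WT and 31.7% in the mutant, against 18.3% and 14.2% of the domains that had lost H3K4me1. At like H3K27ac length the mean share of a domain's span under H3K79me2 differed by 17.3 points in WT (12.2 to 24.1 across the groups) and 18.3 points in the mutant (15.3 to 23.1). H3K4me3 covered similar shares of the span in WT, 13.2% of the 789 domains and 12.6% of the others. At least 1 WT H3K27me3 peak was in 8.87% (6.98 to 11.1) of the 789 domains and in 16.3% (12.6 to 20.6) of the 355, and H3K27me3 covered 0.346% and 1.21% of their spans.

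The borders of the rule were crossed by small margins. The shortest members, at chr9:119230394-119250418 (20025 bp) and chr8:42085928-42106013 (20086 bp), had 1618 and 4928 bp of WT H3K4me1 and 1818 and 1921 bp of mutant H3K4me1. The nearest domains below 20 kb with H3K4me1 of both genotypes, at chr5:64203190-64223145 (19956 bp) and chr1:91458488-91478437 (19950 bp), had 3474 and 12744 bp of WT and 740 and 7249 bp of mutant H3K4me1. The member with the least mutant H3K4me1, at chr17:27955904-27977762, was met by 20 bp of a peak, while the nearest domain outside the rule, at chr17:46991148-47028643, lay 147 bp from one. In all, 6 of the 355 domains without mutant H3K4me1 had such a peak within 1000 bp.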

How the data were processed

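The values start from 10 peak lists, 1 per mark and genotype, on mouse build mm9. Bowtie, MACS, MACS2 and deepTools are named in the submitters' processing notes, with no versions or roles. The H3K4me1, H3K27ac and H3K4me3 lists hold a deposited score per peak whose values look like −log10 p-values multiplied by 10. No peak scored under 90, and 339 WT H3K27ac peaks had a score of 3100 or more, so it does not rank the strongest. The H3K79me2 and H3K27me3 lists give, as the authors deposited them, a fold enrichment (ratio), a −log10 p-value, a −log10 q-value and a score. All of these are the authors' values and served only to rank, group or filter peaks of the same list. The labels state sonication and 10 PCR cycles. No depth can be read from the lists. The 2 input libraries were not used here. The model's full list of alleles is not reported here.

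Peaks were joined and overlapped as the text states, and covered length is the union of a list's peaks. A domain with no peak of a mark counts as 0. Comparisons at like width, score or length average the difference, unweighted, over those of 5 equal groups that hold both kinds. The members, the gene lists and the marks compared were chosen with earlier results of these data known. Domains were named by a rule: the 5 with the longest span, the most mutant H3K4me1, the most kept constituents, the lowest and highest H3K4me1 ratio among those with at least 5000 bp in WT, and the least WT H3K27ac length under mutant H3K27ac, plus 2 on each side of the least span. Not every domain so chosen is printed. The domains at the edge of the H3K4me1 criterion were added after their values were seen.

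The gene tables used here are on another mouse build, so no gene names or sequences are given, and the marker lists of melanocytes and other cell types were not run. The labelled cell type was not checked for that reason. The joining and overlap steps were tested on simulated lists and returned the planted domains and shares. Computation used Python 3.11.15 with scipy 1.17.1, numpy 2.4.6 and, for plots, matplotlib 3.10.9.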

Additional observations from a re-analysis of the deposited data

How the results depend on the processing

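The 10 results were recomputed with other gaps, spans, overlaps, thresholds and list lengths; no difference changed sign. The number of domains was 322 with a gap of 5000 bp, 503 with a span of at least 30 kb and 244 with scores of at least 200 and, for the broad marks, a −log10 q of 5 or more. The share of marked constituents kept was 51.2% with a gap of 5000 bp, 26.9% with an overlap of 50%, 50.07% counting H3K4me1 within 1000 bp, 41.8% with scores of at least 200, and 59.4% and 48.5% with the WT H3K4me1 and H3K27ac lists limited to as many peaks as the mutant lists hold. The H3K4me1 length ratio was 0.350 with scores of at least 200 and 0.561 with the limited H3K4me1 list. The H3K4me3 difference in the share kept was 0.865 points with 50% overlap (asked of H3K4me3 too), 10.3 with scores of at least 200 and 4.07 at like width. For the strongest constituent it was 0.812, 19.04 with the limited H3K4me1 list, 11.7 at like width, 6.27 there without the group with under 20 strongest constituents, and 20.1 at like H3K4me1 score. The difference in mutant H3K27ac between kept and lost constituents was 5.48 points with a gap of 5000 bp, 4.69 with scores of at least 200 and 3.45 at like score. The difference from domains that lost H3K4me1 was 5.95 points at 30 kb, 5.34 with scores of at least 200, 6.02 with the limited H3K27ac list and 5.07 at like length. The H3K79me2 difference was 21.9 points with a gap of 5000 bp and 8.59 at like H3K4me1 score. The ratios of H3K27ac length (0.975 to 1.02) and H3K79me2 length (0.901 to 0.944) stayed within 10%. The H3K79me2 difference in the share kept, and comparisons at like H3K4me1 score, at like H3K27ac length, in domains with 3 or more marked constituents, without the small width group and without tied top scores, were added after seeing the data.

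Causes of these shifts were not tested. Depth is unknown and limits what a missing peak can mean. No paired analysis was possible because each genotype has 1 library per mark.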
